A study of Mus musculus with 32 samples.

Results

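The data compared here are the conversion of control mouse embryonic stem cells (ESC) into neural cells, measured by RNA sequencing in 10 of the 32 libraries of a larger series. All 10 libraries come from cells that carry Smarce1-MD(R42A). The product of Smarce1 is BAF57, which belongs to the SWI/SNF (BAF) complexes, machines that move nucleosomes. MD is generally read as a mitotic degron, a tag that has a protein destroyed as cells divide, and R42A as its inactive form, which makes these clones the tagged control rather than untagged cells. The members were taken by their labels alone: the libraries of clones A04 and A10, with Y-linked genes left out. They form 2 groups. The ESC group holds 6 libraries of the first ESC series, 3 of clone A04 and 3 of clone A10, from cells of the 129S5/SvEvBrd strain grown on gelatin in serum with leukaemia inhibitory factor (LIF). The neural group holds 4 libraries, 2 labelled A04 and 2 labelled A10, from the same tagged background after 6 days in the serum-free neural medium named RHB-A. Each clone label stands for 1 clonal line, no untagged cells enter the comparison, and the libraries of a clone share that clone. Stage and library preparation coincide, so that the change of cell state and the change of library run cannot be told apart.

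Mouse ESC in serum and LIF hold a network of transcription factors centred on Oct4 (encoded by Pou5f1), Sox2 and Nanog. When LIF and serum are withdrawn in a neural medium, cells are known to lose the naive network, pass through a formative state, and become Sox1-positive neural progenitors that line up as rosettes. The progenitors are kept in division by Notch signalling and carry region-specific transcription factors along the head-to-tail and back-to-belly axes. Some of them leave the cell cycle under proneural basic helix-loop-helix factors and become neurons, with glia forming later.

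Total counts ran from 61407377 to 96424439 in the ESC libraries (median 72677721) and from 51736114 to 62236194 in the neural libraries (median 55011962). Levels are given as CPM, counts scaled to the library total. For ESC they are the lowest, the median and the highest of the 6 libraries, and for neural cells the 4 values in the order A04 1, A04 2, A10 1 and A10 2. Log2 changes are neural less ESC from edgeR with their standard errors (SE), and a gene is called changed at a Benjamini-Hochberg adjusted p under 0.05 over all genes tested. Smarce1 itself, the tagged gene (chr11, start 99209047, end 99231017), was at 103, 118 and 147 CPM in ESC. In the neural libraries it was at 227, 232, 235 and 229 CPM, and the rise was 0.95 ± 0.10 (SE) with an adjusted p of 6.59e-05. Every neural library lay above every ESC library. The tag acts on the protein, so this RNA level does not check the label.

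The clone labels of the neural libraries went against the Y-linked share of their counts, which was looked at only for this check. That share was 0.0205% to 0.0263% in the ESC libraries of A04 and 0.00544% to 0.00583% in those of A10. It was 0.00645% to 0.00677% in the neural libraries labelled A04 and 0.00615% to 0.00764% in those labelled A10, so by this share all 4 neural libraries sat near the ESC of A10. Chromosome-wide levels lay the other way. Over 606 protein-coding genes of chromosome 8, the median log2 deviation from the median of the R42A and MD libraries of the same stage used here was 0.208 in A04 ESC and -0.0703 in A10 ESC, and 0.172 and 0.178 in the neural libraries labelled A04 and A10. Over 889 genes of chromosome 11 it was -0.206 and -0.0463 in ESC, and -0.248 and -0.246 in the neural libraries. In a fit of the 10 single libraries, 3269 of 21311 genes (15.3%) differed between A10 and A04 in ESC, and 1 gene (0.00469%) differed between the neural libraries by their labels, with 241 genes at an unadjusted p under 0.05. The gene was Gm45837 on chromosome 7, chosen after its values were seen. The median absolute log2 difference between A10 and A04 was 0.236 in ESC and 0.0661 in neural cells. The A04 ESC libraries were not close to each other. Pairs of them lay 0.1976 to 0.2557 apart in median absolute log2 CPM, and pairs of A10 ESC libraries 0.06037 to 0.1165. A04 2 lay nearer to A10 3 (0.1612) than to either other A04 library. The A10 and A04 comparison in ESC therefore includes a wide spread among the A04 libraries. The neural libraries were not copies of each other: the mean chi-square per gene between pairs was 7.65 and 11.8 within a label, where sampling noise alone gives about 1. Across labels it was 5.39 for A04 1 with A10 1 and 4.54 for A04 2 with A10 2. It was 9.54 and 10.6 for the pairs of unlike number. The closest pairs thus shared the library number and not the label. The spread within a label, on which the test between labels rests, includes that difference, and its source was not tested. The labels are used as given, and whether the neural cells labelled A04 are of that clone was not tested further. The 2 neural sums may therefore be samples of 1 clone, in which case the spread between them is not a spread between clones. The p-values between stages rest on a spread pooled over all 8 sums fitted, those of MD included. The total of called genes, 18661 with all libraries, was 19412 without the A04 ESC libraries and 16754 without the neural libraries labelled A04.

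**Figure D1:**
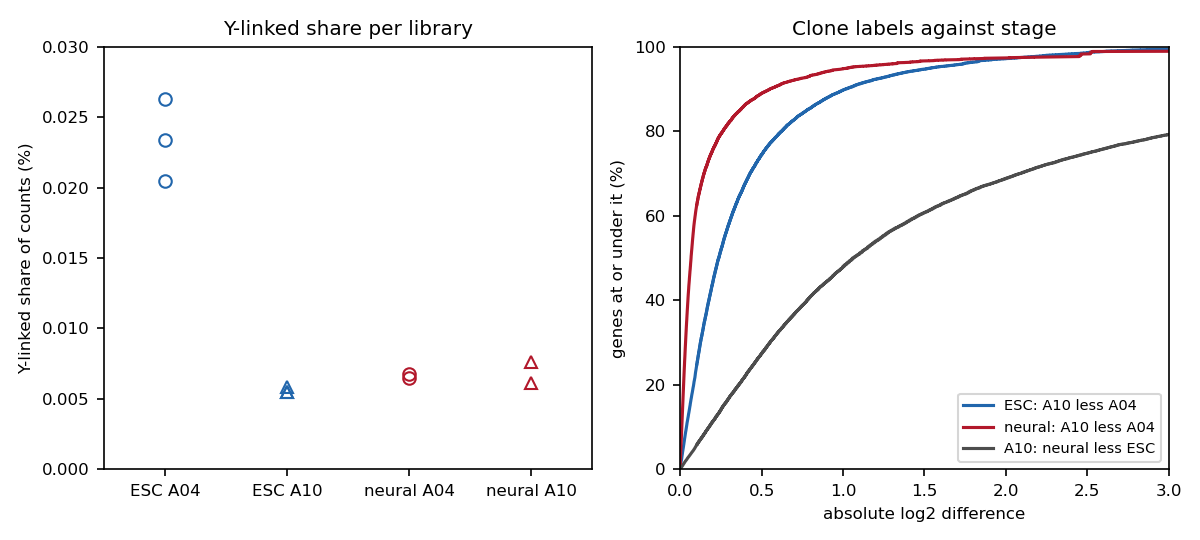
Left, the Y-linked share of counts (%) in each of the 10 libraries by stage and clone label, 1 point per library; the 3 A04 ESC libraries lie at 0.0205% or above and all others at 0.00764% or below. Right, the percentage of 21311 genes at or under each absolute log2 difference for A10 less A04 in ESC (median 0.236), A10 less A04 in neural cells (median 0.0661) and neural less ESC in A10 (median 1.06).

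The 2 stages differed across most of the measured transcriptome. Of 23823 genes tested, 18661 (78.3%) were called, 9030 higher (37.9%) and 9631 lower (40.4%) in neural cells. At least 2-fold higher were 6142 genes (25.8%) and at least 2-fold lower 6139 genes (25.8%). The median absolute log2 change over all genes was 1.14 and the median signed change was -0.06. The 6 ESC and 4 neural libraries did not overlap in CPM for 16717 genes (70.2%). Changes of at least 32-fold were called for 1106 genes that rose and 1405 that fell, and changes of at least 128-fold for 428 and 625. By gene class, 7112 of 16956 protein-coding genes rose and 6790 fell, while 384 of 2702 pseudogenes rose and 1520 fell. The share of all counts on pseudogenes was 4.15% to 4.69% in ESC and 3.11% to 3.18% in neural libraries. Reads of pseudogenes and of their parent genes may be split by the counting, so single pseudogenes are not named.

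For scale, 11101 protein-coding genes at a mean of at least 5 CPM were compared between groups of libraries. Their median absolute log2 difference was 0.719 between neural and ESC, 0.298 between the second and the first ESC series of R42A clones, 0.158 between ESC of A10 and A04, and 0.0352 between neural libraries labelled A10 and A04. Against the second ESC series, which holds other R42A clones (A01 and A02) in 6 libraries, 85.9% of the called genes that could be compared were called in the same direction and 755 were called in the opposite one. Because so large a share of all genes was called, the counts below are read against the percentages of all genes above. A bulk library also cannot tell fewer cells of a type from less RNA per cell.

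Genes of the core and naive pluripotency list, which does not hold Sox2, were all lower in neural cells. All 30 of 30 listed genes fell, with a median log2 change of -6.11 against -0.06 over all genes, and 28 of them fell at least 2-fold. Pou5f1 (chr17, start 35506018, end 35510772), the Oct4 gene, was at 721, 885 and 1178 CPM in ESC. In neural cells it was at 10.8, 9.0, 9.36 and 10.8 CPM, a change of -6.49 ± 0.08 (SE, adjusted p = 1.84e-08). The groups did not overlap, and the RNA of this factor remained measurable in each neural library. Nanog, a homeobox factor that stabilises self-renewal, went from 655, 754 and 785 CPM to 3.22, 2.67, 2.25 and 2.80 CPM. Its change was -8.10 ± 0.16 (SE, adjusted p = 4.45e-08).

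Factors around that core fell by similar amounts. Esrrb, an orphan nuclear receptor of the naive state, went from 598, 650 and 826 CPM to between 5.02 and 6.35 CPM (log2 change -6.81 ± 0.09). Zfp42, the gene of the ESC marker Rex1, went from a median of 650 CPM to between 2.77 and 3.93 CPM (-7.79 ± 0.22). Tfcp2l1, which helps to keep the naive state, went from a median of 475 CPM to between 7.73 and 9.84 CPM (-5.71 ± 0.13). Larger still were the falls of Prdm14, a repressor of differentiation (-8.43 ± 0.15), of Fgf4, the ligand that ESC secrete and that drives their exit from pluripotency (-8.79 ± 0.12), and of Tdgf1, a co-receptor for Nodal (-8.94 ± 0.18). Dppa5a, an ESC RNA-binding protein, had a level per kilobase of exon of 2422 CPM in ESC, among the 10 highest of nuclear protein-coding genes, and of 9.58 CPM in neural cells. Klf4, a zinc-finger factor that acts in many tissues, fell less and stayed at 10.6 to 14.5 CPM (-3.10 ± 0.12).

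Sox2, which serves both pluripotency and neural progenitors, stayed near its ESC level. It was at 209, 224 and 243 CPM in ESC and at 212, 214, 205 and 212 CPM in neural cells. The groups overlapped, and edgeR gave -0.09 ± 0.05 (SE, adjusted p = 0.118). Against the second ESC series it was -0.63 with an adjusted p of 3.18e-07, so that the comparison depended on which ESC were used. Sall4, a zinc-finger factor of ESC, fell by 0.33 ± 0.13 with an adjusted p of 0.0421 and overlapping groups. Without the A04 ESC libraries its change was -0.11 and missed the threshold (adjusted p = 0.0507).

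The response to LIF, which acts through its receptor, Jak kinases and the factor STAT3, was lower in the neural cells. Of 12 genes, 11 fell and 1 rose, with a median of -2.02. Socs3, the feedback inhibitor of this pathway, went from 112, 174 and 209 CPM to 18.2, 18.9, 15.7 and 17.9 CPM (-3.22 ± 0.15, adjusted p = 1.37e-06). Bcl3, a nuclear co-factor, went from a median of 21.8 CPM to between 0.0930 and 0.203 CPM (-7.16 ± 0.14). Every neural library was below every ESC library for both genes, and the stages did not overlap for 70.2% of all genes tested.

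Genes of the formative and primed states, which lie between naive ESC and the germ layers, split: 9 of 17 rose and 8 fell, with a median of 0.44, and 8 rose and 9 fell against the second ESC series. Otx2, a homeobox factor of formative cells and later of the forebrain and midbrain, rose from 16.9, 21.3 and 22.5 CPM to 157, 160, 160 and 151 CPM (2.92 ± 0.12, adjusted p = 7.01e-07). Sox3, a close relative of Sox1 and Sox2, rose from 0.774, 1.16 and 2.10 CPM to 63.5, 70.0, 60.9 and 76.0 CPM (5.77 ± 0.30). Pou3f1, the Oct6 gene, rose by 2.22 ± 0.19. The de novo DNA methyltransferase gene Dnmt3b fell by 1.62 ± 0.05, and Lefty2, a secreted inhibitor of Nodal, by 6.04 ± 0.25. Otx2, Sox3 and Pou3f1 are also known as genes of neural cells.

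LIN28 proteins block the maturation of let-7 microRNAs. Lin28a was at 253, 260 and 370 CPM in ESC and at 268, 256, 251 and 275 CPM in neural cells, with overlapping groups and an adjusted p of 0.216. Its change of -0.13 ± 0.09 was 0.01 without the A04 ESC libraries, 1 of which held the value of 370 CPM. Lin28b rose from a median of 74.7 CPM to between 267 and 282 CPM (1.76 ± 0.11). Hmga2, a let-7 target that is abundant in early neural stem cells, rose from 12.6, 15.4 and 16.5 CPM to 427, 409, 420 and 412 CPM (4.79 ± 0.06, adjusted p = 1.84e-08). On this list 7 of 12 genes rose and 2 fell.

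Neural progenitor genes were the mirror image of the naive list: 30 of 31 rose and none fell, with a median of 5.22. The exception that was not called is Sox2. Sox1 (chr8, start 12395295, end 12400126), the earliest specific marker of neuroectoderm, rose from 5.65, 8.57 and 13.6 CPM to 177, 176, 163 and 178 CPM (4.26 ± 0.35, adjusted p = 2.21e-05). Pax6, a paired-box factor of radial glia and the eye, rose from 5.92, 9.59 and 18.4 CPM to 108, 113, 114 and 107 CPM (3.36 ± 0.39, adjusted p = 0.000143). Both genes were lower in the ESC of A10 than in those of A04, and their change is split by clone label further on. Nes, which encodes the intermediate filament nestin of neural stem cells, rose from 14.4, 19 and 21.4 CPM to between 573 and 616 CPM (4.98 ± 0.18).

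Other progenitor genes were nearly silent in ESC. Fabp7, the fatty-acid binding protein of radial glia, had 10 counts over the 6 ESC libraries and was at 131, 144, 154 and 137 CPM in neural cells. Its log2 change was 12.54 ± 0.72, a value that rests on those few counts. Zic1, a zinc-finger factor of dorsal neural tissue, was at no more than 0.0775 CPM in ESC and at 258 to 289 CPM in neural cells (12.41 ± 0.13). Pou3f2 (Brn2), a POU factor of progenitors and upper-layer neurons, was at no more than 0.164 CPM in ESC and at 144 to 156 CPM in neural cells (11.11 ± 0.16). Msi1, an RNA-binding protein of stem cells, rose by 3.96 ± 0.09, Sox21 by 7.0 ± 0.10 and Ptn, a secreted growth factor of radial glia, by 9.42 ± 0.28. Vim, the vimentin gene, which many cell types express, rose from 118, 130 and 135 CPM to between 1043 and 1200 CPM.

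**Figure D2:**
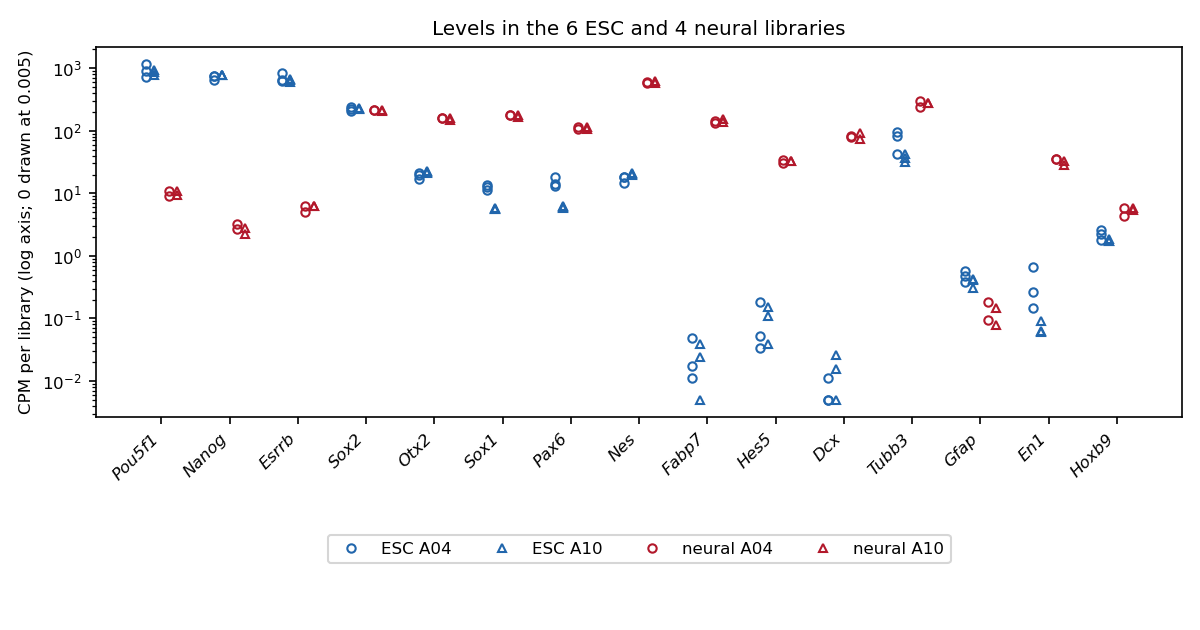
Level of 15 genes in each library on a log axis of CPM, with ESC in blue and neural libraries in red, circles for A04 and triangles for A10, and 0 drawn at 0.005. Pou5f1, Nanog and Esrrb lie lower in all 4 neural libraries than in any ESC library, Sox2 overlaps near 210 to 240 CPM, and Fabp7 and Dcx lie below 0.05 CPM in ESC and above 70 CPM in neural cells.

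Notch signalling, in which ligands on 1 cell open a receptor on its neighbour and so raise the repressors of the Hes and Hey family, changed at every level. Of 23 genes, 20 rose and 3 fell, with a median of 1.90. Of the ligands, Dll1 rose from 2.24, 4.14 and 5.46 CPM to 88.3, 95.8, 90.3 and 92.6 CPM (4.51 ± 0.09, adjusted p = 4.15e-08). Of the receptors, Notch3 rose from 13.8, 35.8 and 51.2 CPM to between 230 and 259 CPM (2.87 ± 0.11). Rbpj, the DNA-binding factor that the cleaved receptor joins, went the other way, from 664, 726 and 843 CPM to 179, 174, 182 and 172 CPM (-2.08 ± 0.06). Hes5, the Notch target that holds back neuronal differentiation, was at 0.0332, 0.0807 and 0.180 CPM in ESC and at 30.6, 34.4, 33.2 and 33.2 CPM in neural cells (8.50 ± 0.13, adjusted p = 2.32e-08). Its promoter is shown because it carries the letters GTGGGAA, which RBPJ is known to bind, on both strands in the same window. The window runs from 250 bases before to 50 bases after the RefSeq start (GRCm38.p6, chr4:154960673-154960972, plus strand), and capitals mark GTGGGAA and its reverse complement.
Hes5: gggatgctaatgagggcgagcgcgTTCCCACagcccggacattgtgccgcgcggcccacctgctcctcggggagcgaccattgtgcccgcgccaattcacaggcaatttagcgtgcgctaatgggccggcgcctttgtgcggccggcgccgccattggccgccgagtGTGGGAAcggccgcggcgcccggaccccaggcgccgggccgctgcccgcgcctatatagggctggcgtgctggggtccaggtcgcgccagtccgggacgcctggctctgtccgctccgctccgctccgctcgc
These letters, on either strand, were in the windows of 3 of the 19 Notch genes that matched the RefSeq table (Hes5, Hey2 and Lfng) and in 6.39% of 27025 promoters. A match is a description of the sequence only.

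Proneural basic helix-loop-helix genes and their partners rose in 18 of 22 cases and fell in 2, with a median of 3.27. Neurog2, the proneural factor of dorsal forebrain and sensory lineages, had 4 counts over the ESC libraries and was at 4.74 to 5.40 CPM in neural cells. Neurod4 had 1 count over the ESC libraries and was at 8.07 to 9.52 CPM. The 2 that fell were Neurod1, from 5.34, 16.2 and 17.5 CPM to between 5.49 and 6.53 CPM (-1.24 ± 0.19, overlapping groups), and Neurog3, a factor of the endocrine pancreas, by 3.54 ± 0.31. Id3, an inhibitor of this factor class and a target of BMP signals, rose by 5.11 ± 0.38.

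Genes of differentiated neurons mostly rose, 29 of 35 with a median of 2.61, but 3 fell. Dcx, a microtubule-binding protein of migrating young neurons, had 4 counts over the ESC libraries and was at 78.3, 81.1, 92.9 and 73.4 CPM in neural cells. Tubb3, the neuronal beta-tubulin, was already present in ESC at 31.6, 42.8 and 97.3 CPM and rose to 239, 302, 280 and 282 CPM (2.29 ± 0.30). Map2, a dendritic microtubule protein, rose by 4.14 ± 0.11 and Nefm, a neurofilament subunit, by 6.83 ± 0.30. Against these, Stmn2, a microtubule-destabilising protein of growth cones, fell from 268, 311 and 366 CPM to 55.2, 58.6, 63.2 and 58.3 CPM (-2.40 ± 0.13, adjusted p = 2.32e-06). Nefh, the heavy neurofilament subunit of mature neurons, fell from a median of 61.7 CPM to between 2.44 and 2.99 CPM (-4.68 ± 0.20). Mapt, the tau gene, was not called (-0.75 ± 0.35, adjusted p = 0.0836). Its change was 0.02 without the A10 ESC libraries and -1.27 without those of A04.

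Genes that set the transmitter a neuron uses were divided, with 8 of 19 higher, 6 lower and a median of 0.21. Slc17a6, the vesicular glutamate transporter of brainstem and thalamic neurons, had 5 counts over the ESC libraries and was at 4.84 to 6.26 CPM in neural cells. Gad1, an enzyme that makes GABA, went from 1.07, 3.0 and 3.42 CPM to 0.818, 0.523, 0.527 and 0.691 CPM (-2.05 ± 0.31). Ddc, the decarboxylase of dopamine and serotonin synthesis that is also active outside neurons, fell from a median of 22.2 CPM to between 1.93 and 2.24 CPM (-3.44 ± 0.11). The receptors for these transmitters moved 1 way: 26 of 30 rose, none fell, and the median was 3.62. Gria2, an AMPA-type glutamate receptor subunit, had 2 counts over the ESC libraries and was at 8.82, 7.85, 9.33 and 7.15 CPM in neural cells. Of voltage-gated channel genes, 21 of 25 rose and 1 fell. Cacna1g, a T-type calcium channel, went from a median of 0.583 CPM to between 95.9 and 113 CPM (7.60 ± 0.22).

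Glial genes were split, with 10 of 20 higher, 6 lower and a median of 0.42, or 9 higher and 10 lower against the second ESC series. Gfap, the filament protein of astrocytes, was at 0.303, 0.423 and 0.574 CPM in ESC and at 0.0930, 0.186, 0.0775 and 0.146 CPM in neural cells, a fall of 1.74 ± 0.32 between levels that were low in both. S100b was listed at 0 in all 4 neural libraries. Slc1a2, a glutamate transporter of astrocytes and radial glia, rose from a median of 0.0879 CPM to between 25.1 and 31.1 CPM (8.28 ± 0.27). Pdgfra, a receptor of oligodendrocyte precursors that mesenchyme and yolk sac cells also carry, rose from 1.85, 3.32 and 5.63 CPM to 126, 111, 104 and 105 CPM (5.03 ± 0.39). Aqp4, the water channel of astrocytes, had 3 counts over the ESC libraries and was at 2.09 to 2.88 CPM in neural cells. Mbp, a myelin protein gene with other early transcripts, rose by 3.69 ± 0.27.

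The neural cells held region-specific factors of several levels of the head-to-tail axis at the same time. Forebrain and eye-field genes rose in 19 of 23 cases with a median of 5.46, and midbrain and hindbrain genes in 20 of 25 with a median of 5.55. From the forebrain, Otx1, a homeobox factor related to Otx2, rose from a median of 0.191 CPM to between 98.4 and 110 CPM (8.94 ± 0.21). Six3, an eye-field factor, had 6 counts over the ESC libraries and was at 7.44 to 7.90 CPM, and Fezf2, a factor of forebrain and of deep-layer cortical neurons, had 1 count and was at 24.5 to 29.2 CPM. Emx2, a dorsal telencephalic factor, rose to between 29.2 and 31.7 CPM from at most 0.332 CPM.

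At the midbrain and its border with the hindbrain, Wnt1, the ligand of that organiser and of the dorsal midline, was at 0 in all 6 ESC libraries. It was at 18.6, 20.3, 13.8 and 21 CPM in neural cells, at least 2860-fold higher against a floor of 3 counts over the ESC group. En1 and En2, the engrailed homeobox factors of this region, rose by 7.13 ± 0.77 and 5.55 ± 0.35, En2 from 1.78, 2.93 and 5.36 CPM to 155, 159, 135 and 145 CPM. Pax5 rose from a median of 0.936 CPM to between 120 and 142 CPM (7.21 ± 0.14). Irx3, a factor of the caudal forebrain and hindbrain, rose by 8.31 ± 0.25. Gbx2, the anterior hindbrain factor that ESC also use under LIF, fell from 26.8, 35.7 and 79.1 CPM to 10.2, 9.91, 8.74 and 11.8 CPM (-2.11 ± 0.31).

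Hox genes, which pattern the hindbrain and spinal cord in the order of their clusters, were called higher for 16 of 35 tested and lower for 8, with a median of 0.57. Their levels were low. Hoxa2, a hindbrain member, rose from 0.0619, 0.109 and 0.155 CPM to 4.02, 3.97, 4.23 and 4.78 CPM (5.25 ± 0.33). Hoxb9, a trunk member, rose from a median of 1.82 CPM to between 4.37 and 5.80 CPM (1.44 ± 0.16). Hoxd3 was at 0 in all ESC libraries and at 0.355 to 0.589 CPM in neural cells, at least 81.5-fold higher against a floor of 3 counts. The 8 that fell included Hoxd13, a distal limb and tail member (-3.63 ± 0.39).

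On the back-to-belly axis, 31 of 34 genes rose and 1 fell, with a median of 5.09, and both ends of the axis were present. Among dorsal and alar factors, Pax3 had 8 counts over the ESC libraries and was at 47.6, 48.6, 54.1 and 47.6 CPM in neural cells. Zic4, which had 2 counts in ESC, was at 54.0 to 61.6 CPM. Dbx1, a factor of intermediate progenitor domains, had 5 counts in ESC and was at 41.5, 44.6, 42 and 40.9 CPM. On the ventral side the levels were lower. Shh, the ligand secreted by notochord and floor plate, was at 4.43 to 5.69 CPM, Foxa2, a factor of floor plate and of endoderm, at 12.7 to 16.1 CPM, and Olig2, a factor of motor neuron and oligodendrocyte progenitors, at 4.96 to 5.46 CPM. Tfap2b, a factor of neural crest and of some midbrain and cerebellar neurons, was at 0 in every ESC library and at 33.7, 34.7, 34.9 and 29.99 CPM in neural cells, at least 5229-fold higher. Of the neural crest list, 7 of 13 rose and 3 fell. Its defining factor Sox10 stayed between 0.202 and 0.371 CPM, and its early factor Foxd3 fell to between 0.149 and 0.279 CPM.

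Signals that pattern the neural tube moved with these factors. Of Wnt pathway genes, 26 of 31 rose and 4 fell, with a median of 4.22. Wnt8b, a ligand of the dorsal forebrain, rose from 0.0665, 0.133 and 0.230 CPM to 87.6, 95.5, 92.3 and 92.4 CPM (9.34 ± 0.13, adjusted p = 1.84e-08). Fzd3, a receptor needed for axon tracts and neural tube closure, rose from a median of 33.4 CPM to between 526 and 595 CPM (4.03 ± 0.06). Axin2, a feedback target that reports canonical Wnt activity, rose from 8.32, 9.42 and 14.5 CPM to 111, 116, 105 and 113 CPM (3.34 ± 0.17). These 3 genes, 1 ligand, 1 receptor and 1 target, were each higher in every neural library than in any ESC library. The stages did not overlap for 70.2% of all genes tested. Other genes of these classes went the other way: the receptor gene Fzd5 and the feedback gene Notum fell under both clone labels.

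Hedgehog genes rose in 12 of 16 cases and fell in 2, with a median of 1.78. Gas1, a co-receptor for the ligand, rose by 5.39 ± 0.16. The pathway's target genes moved little: Ptch1, the receptor that is itself a target, rose from 90.5, 108 and 129 CPM to between 130 and 152 CPM (0.36 ± 0.06, adjusted p = 0.000891), and Gli1, the target most used as a readout, fell from 39.6, 48.6 and 66.9 CPM to 38.3, 34.9, 32.2 and 36.0 CPM (-0.54 ± 0.12, adjusted p = 0.00442). Of retinoic acid genes, 15 of 24 rose and 4 fell. Crabp2, a carrier of retinoic acid, rose from a median of 3.07 CPM to between 209 and 233 CPM (6.19 ± 0.22), and Cyp26b1, an enzyme that degrades it, by 6.39 ± 0.11. Rarg, a receptor, fell by 4.58 ± 0.32. Stra8, a retinoic acid target known for meiotic entry, was at 23.4, 26 and 38 CPM in ESC and at 0 in all 4 neural libraries, at least 1935-fold lower against a floor of 3 counts over the neural group.

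In the FGF and ERK list 11 of 20 rose and 7 fell. Fgfr2 rose by 3.35 ± 0.13, while Spry4, a feedback inhibitor that tracks ERK activity, fell from 134, 185 and 275.5 CPM to 14.8, 13.2, 12.6 and 13.6 CPM (-3.87 ± 0.28, adjusted p = 1.22e-05). Of Nodal and BMP genes, 13 of 23 rose and 9 fell. The Nodal co-receptor Tdgf1 and the inhibitor Lefty2, described above, fell, and the BMP target Id3 rose from 1.53, 2.7 and 6.14 CPM to 112, 130, 117 and 124 CPM.

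Because all cells carried a tag on BAF57, the subunits of the SWI/SNF complexes are given by role. During neural development these complexes are known to exchange some subunits. In mice they go from Actl6a, Ss18 and Phf10 in progenitors to Actl6b, Ss18l1 and Dpf1 or Dpf3 in neurons. Of 31 subunit genes, 21 rose and 5 fell, with a median of 0.62; against the second ESC series 19 rose and 8 fell. Of the ATPases, Smarca4 (Brg1) rose from 197, 236 and 295 CPM to 399, 409, 390 and 422 CPM (0.77 ± 0.05), and Smarca2 (Brm) from 1.36, 1.76 and 2.07 CPM to 70.7, 67.6, 68.3 and 64.8 CPM (5.29 ± 0.16, adjusted p = 2.09e-07). Of the scaffold pair, Smarcc2 rose from a median of 41.3 CPM to between 170 and 177 CPM (2.07 ± 0.04), whereas Smarcc1, the ESC form, was at 361, 374 and 396 CPM before and at 383, 368, 365 and 366 CPM after (-0.02 ± 0.04, adjusted p = 0.724). The sign of that value turned in several alternative fits.

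Of the subunits known to be exchanged, some moved in the neuronal direction and some did not. Actl6a fell from 151, 167 and 186 CPM to 125, 127, 129 and 131 CPM (-0.40 ± 0.05, adjusted p = 0.000144). Actl6b rose from 0.0174, 0.0360 and 0.180 CPM to 1.10, 1.6, 1.61 and 1.51 CPM (4.76 ± 0.29). Ss18 fell by 0.42 ± 0.05 to between 123 and 125 CPM and Ss18l1 rose by 0.82 ± 0.08 to between 16.7 and 18.3 CPM. These CPM are not corrected for transcript length, so levels of different genes are not ranked by them. Phf10, the form of progenitors, did not fall but was higher in neural cells under both clone labels in the fit of single libraries. Dpf2, of the same family, rose by 0.38 ± 0.05, and Dpf3 rose from a median of 0.346 CPM to between 2.09 and 2.53 CPM (2.60 ± 0.23). Dpf1 rose by 0.28 ± 0.11 with overlapping groups (adjusted p = 0.0455) and fell by 0.53 against the second ESC series. Opposite moves were also seen between Smarcd2 (-1.64 ± 0.07) and Smarcd3 (1.41 ± 0.14), and between Bicral, from 127.6, 136.7 and 185.1 CPM to between 18.6 and 20.7 CPM (-2.90 ± 0.11), and Bicra, from 4.69, 6.30 and 9.43 CPM to between 42.8 and 53.1 CPM (2.88 ± 0.12), which are alternative subunits of the non-canonical complex. Arid1b rose by 1.65 ± 0.09.

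**Figure D3:**
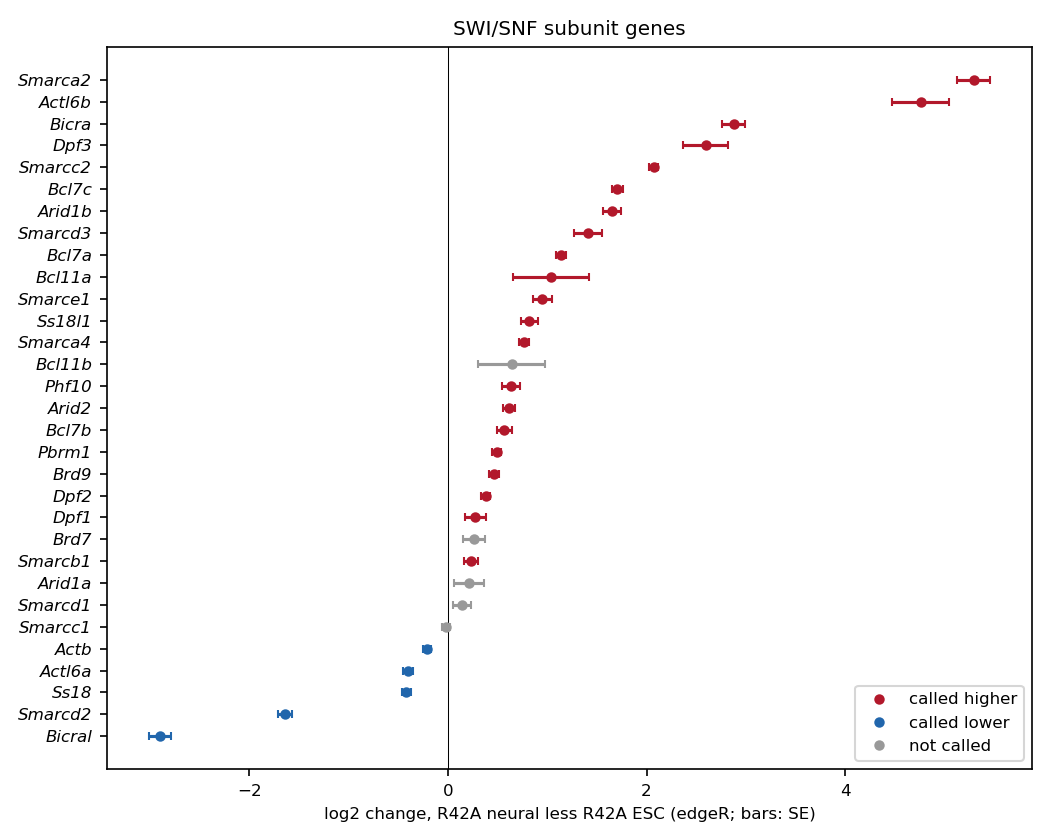
Log2 change (neural less ESC, points) with its SE (bars) for 31 SWI/SNF subunit genes, coloured by whether they were called higher, called lower or not called. Smarca2 (5.29) and Actl6b (4.76) lie at the top, Smarcc1 (-0.02) near 0, and Smarcd2 (-1.64) and Bicral (-2.90) at the bottom.

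Other chromatin genes were split between higher and lower. Polycomb and trithorax genes rose in 11 of 24 cases and fell in 9. Cbx7, the chromodomain protein of ESC Polycomb complexes, fell from 162, 183 and 214 CPM to 43.4, 43.3, 38.5 and 40.7 CPM (-2.16 ± 0.06, adjusted p = 1.22e-07), while its relative Cbx8 rose from a median of 0.698 CPM to between 7.69 and 9.29 CPM (3.67 ± 0.14). Bmi1, a ring-finger subunit needed for neural stem cell renewal, rose from a median of 13.7 CPM to between 96.3 and 104 CPM (2.86 ± 0.09), and Mtf2, a recruiter of the methylating complex, fell by 1.91 ± 0.07. Of DNA methylation genes, 8 of 18 rose and 9 fell. Tet1, the hydroxylase of methylated cytosine that dominates in ESC, fell from 1516, 1606 and 2124 CPM to 87.2, 76.4, 81.5 and 77.7 CPM (-4.38 ± 0.08), and Tet3 rose from 17.4, 21.4 and 26.1 CPM to 203, 211, 201 and 205 CPM (3.26 ± 0.10). Dnmt3l, a cofactor of de novo methylation, fell by 6.30 ± 0.23, and the maintenance enzyme gene Dnmt1 changed by 0.20 ± 0.04 (adjusted p = 0.0027), or by 0.02 against the second ESC series (adjusted p = 0.614).

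Regulators of RNA that are known from neurons were among the genes that changed. In the list of RNA-binding and splicing genes 17 of 26 rose and 5 fell, with a median of 1.78, and against the second ESC series 20 rose and 2 fell. Rest, the repressor that keeps neuronal genes off outside neurons, fell from 390, 416 and 486 CPM to 86.0, 83.3, 83.0 and 78.4 CPM (-2.37 ± 0.05, adjusted p = 6.12e-08). Srrm4, a splicing factor of neuronal microexons, rose from 1.10, 1.19 and 1.53 CPM to 32.4, 33.5, 34.0 and 32.4 CPM (4.73 ± 0.09). Ptbp2, the splicing repressor of young neurons, rose by 2.28 ± 0.08. Of 20 long non-coding RNAs tied to 1 of the stages, 12 rose and 7 fell. Lncenc1, an ESC transcript, went from a median of 301 CPM to between 1.43 and 1.89 CPM (-7.45 ± 0.14). Miat went from a median of 2.78 CPM to between 448 and 496 CPM (7.35 ± 0.18), and Rmst, a neural transcript known to bind SOX2, from 6 counts over the ESC libraries to between 21.4 and 27.9 CPM.

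Host transcripts of microRNAs known from neural cells moved both ways. Mir124-2hg, a host of miR-124, went from 0.0243, 0.0845 and 0.111 CPM to 74.4, 74.5, 83.1 and 69.3 CPM (9.94 ± 0.35, adjusted p = 3.44e-07), and Mir9-3hg, a host of miR-9, from a median of 1.22 CPM to between 7.38 and 8.60 CPM (2.33 ± 0.28). Another host of miR-124, Mir124a-1hg, fell from 31.2, 39.1 and 49.4 CPM to 8.70, 9.39, 8.99 and 7.26 CPM (-2.21 ± 0.19, adjusted p = 2.81e-05). It was the 1 that fell of 8 host or primary transcripts tested, of which 4 rose. The mature microRNAs were not measured by these libraries. The mature miR-9-5p from RefSeq (GRCm38.p6, chr7:79505279-79505301, plus strand) is shown because its seed sets its targets, known to include Rest, with the seed (bases 2 to 8) in capitals.
miR-9-5p: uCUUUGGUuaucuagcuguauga

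Adhesion and guidance genes changed widely. Cdh1, the epithelial cadherin of ESC, fell from 406, 465 and 528 CPM to 68.6, 58.7, 57.2 and 56.6 CPM (-2.96 ± 0.11, adjusted p = 4.41e-07). Cdh2, the neural cadherin, rose from 3.69, 4.17 and 4.76 CPM to 441, 453, 444 and 434 CPM (6.73 ± 0.10, adjusted p = 1.84e-08), and Cdh11 from a median of 0.115 CPM to between 124 and 127 CPM (10.05 ± 0.32). Every library of each stage lay on its own side for these 3 cadherins, as for 70.2% of all genes tested. Of 27 genes in the adhesion list, 16 rose and 7 fell. Of axon guidance genes, 33 of 35 rose and 1 fell, with a median of 4.50. Robo2, a receptor for the repellent Slit, rose from a median of 0.0519 CPM to between 43.0 and 46.3 CPM (9.43 ± 0.12), and Epha3, an ephrin receptor, had 4 counts over the ESC libraries and was at 48.5 to 54.1 CPM.

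The largest rises of all protein-coding genes included neuronal membrane proteins and receptors beside the patterning factors given above. Slitrk6, a neuronal membrane protein that promotes neurite growth, was at 0 in all ESC libraries and at 25.3, 24.5, 26.0 and 24.3 CPM in neural cells, at least 3922-fold higher. Lsamp, a cell-surface protein of limbic neurons, was at 0 in ESC and at 16.1 to 16.7 CPM, at least 2557-fold higher. Erbb4, a neuregulin receptor, had 2 counts over the ESC libraries and was at 71.4, 71.6, 74.4 and 63.5 CPM. The largest falls were Stra8, Mymx and Khdc3. Mymx, a membrane peptide of muscle cell fusion, went from 58.9, 63.2 and 90.0 CPM to 2 counts over the neural libraries, and Khdc3, a protein of oocytes and early embryos, from 22.1, 37.5 and 50.3 CPM to 2 counts.

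Across all genes tested, 28 were at 0 in every ESC library and at a mean of at least 1 CPM in neural cells, and 30 were at 0 in every neural library and at that level or above in ESC. The most abundant nuclear protein-coding genes per kilobase were shared. Eef1a1, the translation elongation factor, had the highest level in both stages, with 5419 CPM per kilobase in ESC and 3718 in neural cells. Hsp90ab1, a chaperone, was at 2435 and 1308 CPM per kilobase, while Tuba1a, an alpha-tubulin, rose from 235 to 857. Their log2 changes were -0.54 ± 0.06, -0.89 ± 0.06 and 1.87 ± 0.06.

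**Figure D4:**
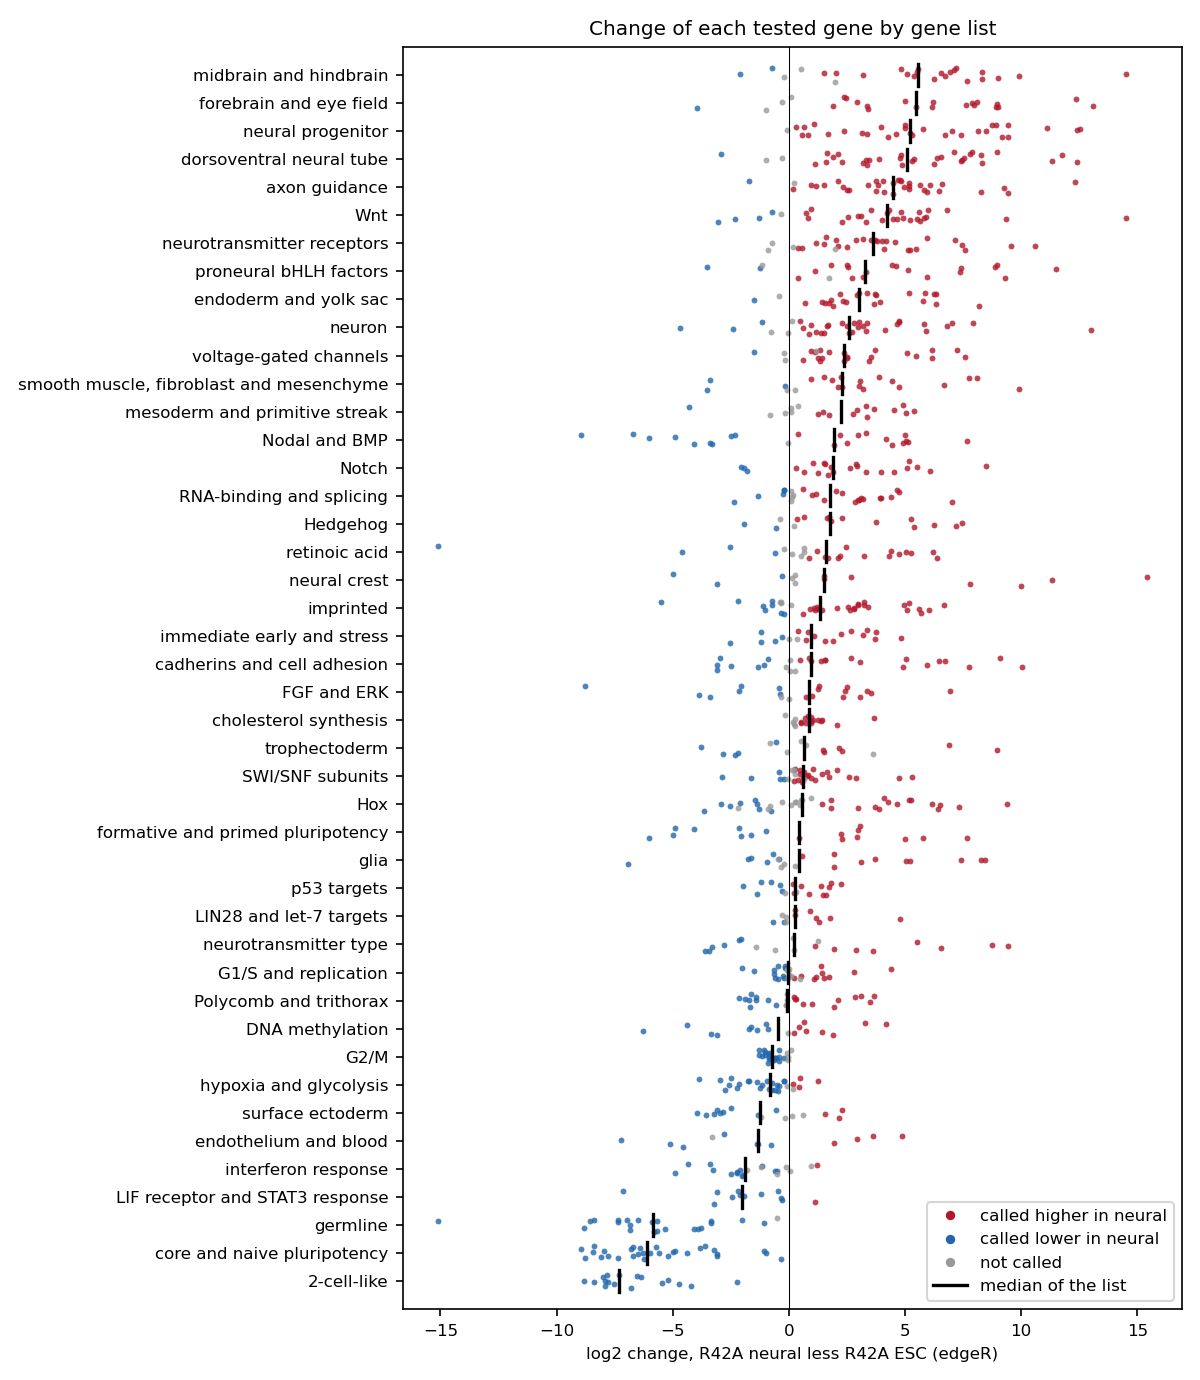
Log2 change (neural less ESC, x axis) of each tested gene in 44 gene lists ordered by their median (black bar), with genes called higher in red, called lower in blue and not called in grey. The 2-cell-like (-7.33), naive pluripotency (-6.11) and germline (-5.83) lists lie at the bottom and the midbrain and hindbrain (5.55), forebrain (5.46) and neural progenitor (5.22) lists at the top.

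Mitotic genes were lower in neural cells. Of 24 genes of G2 and mitosis, 20 fell and none rose (18 and 3 against the second ESC series), though with a median of -0.71 that is small beside the lists above and 6 fell at least 2-fold. Cdk1, the kinase that starts mitosis, went from 234, 243 and 262 CPM to 119, 119, 125 and 122 CPM (-1.02 ± 0.05, adjusted p = 1.01e-06), and Ccnb1, its cyclin, from 442, 460 and 512 CPM to 217, 216, 228 and 226 CPM (-1.07 ± 0.05). Mki67, the proliferation marker Ki-67, was at 530, 610 and 659 CPM and at 638, 591, 658 and 619 CPM, and was not called (0.08 ± 0.07, adjusted p = 0.269). It was -0.06 when each chromosome was scaled separately and 0.76 against the second ESC series (adjusted p = 3.21e-07). Promoters of 2 of these genes are shown because their windows hold repeated CCAAT letters, bound by NF-Y, beside TTTGAA, a core of the cell cycle homology element. Capitals mark CCAAT and TTTGAA on the printed strand and ATTGG, the reverse complement of CCAAT (GRCm38.p6; Cdk1, chr10:69352863-69353162, minus strand; Ccnb2, the partner cyclin, chr9:70421505-70421804, minus strand).
Cdk1: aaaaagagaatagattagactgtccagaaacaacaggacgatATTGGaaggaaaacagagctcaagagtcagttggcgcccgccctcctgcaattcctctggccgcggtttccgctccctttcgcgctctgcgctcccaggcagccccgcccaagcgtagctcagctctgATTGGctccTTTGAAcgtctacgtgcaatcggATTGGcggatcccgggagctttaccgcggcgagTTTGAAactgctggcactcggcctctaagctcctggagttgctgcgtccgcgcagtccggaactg
Ccnb2: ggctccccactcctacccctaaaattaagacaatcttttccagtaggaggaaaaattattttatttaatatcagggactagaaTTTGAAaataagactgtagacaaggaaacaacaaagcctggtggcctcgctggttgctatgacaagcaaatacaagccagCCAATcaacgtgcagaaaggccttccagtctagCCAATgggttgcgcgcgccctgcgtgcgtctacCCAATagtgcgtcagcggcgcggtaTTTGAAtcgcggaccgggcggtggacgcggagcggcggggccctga
On either strand, CCAAT was in 17 of 20 windows of this list that matched the RefSeq table and in 37.9% of all 27025 promoters, and TTTGAA in 15 of 20 and in 18.1%. CCAAT was also in 11 of 12 windows of the cholesterol synthesis list, whose genes mostly rose, so it is not particular to mitotic genes. Letters counted in some other lists are not reported here.

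Genes of G1, S phase and replication were divided, with 10 of 28 higher and 11 lower. Ccnd2, the D-type cyclin of neural progenitors, rose from 14.8, 24.3 and 63.5 CPM to 729, 712, 706 and 642 CPM (4.38 ± 0.60, adjusted p = 0.000341), while Ccne1, the E-type cyclin that ESC keep high through the cycle, fell from 241, 261 and 263 CPM to 63.8, 60.7, 61.6 and 65.5 CPM (-2.04 ± 0.04). The cell cycle inhibitors Cdkn1c and Cdkn1a rose by 2.82 ± 0.06 and 1.74 ± 0.13. Trp53, the p53 gene, fell by 1.20 ± 0.08, whereas of its targets 10 of 18 rose and 6 fell.

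Metabolic genes moved in opposite directions by pathway. Of 28 hypoxia and glycolysis genes, 22 fell and 4 rose, with a median of -0.79. Slc2a3, a glucose transporter, went from 1162, 1755 and 1808 CPM to 415, 355, 348 and 383 CPM (-2.13 ± 0.10), Pfkp, a phosphofructokinase, from 374, 559 and 747 CPM to 43.0, 38, 32.8 and 34.6 CPM (-3.87 ± 0.11), and Ldha, lactate dehydrogenase, from a median of 1200 CPM to between 433 and 548 CPM (-1.25 ± 0.07). Gapdh, often used as a reference gene, was called higher by 0.20 ± 0.06 with overlapping groups and was lower by 0.69 against the second ESC series. Of 20 cholesterol synthesis genes, 15 rose and none fell. Hmgcs1, an early enzyme of the pathway, rose from 166, 369 and 425 CPM to between 817 and 918 CPM (1.40 ± 0.22), and Mvk by 2.06 ± 0.14. The media differ in serum, a source of cholesterol, and the part of the medium was not tested.

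Imprinted genes, expressed from 1 parental copy, rose in 24 of 36 cases and fell in 8. Igf2, a growth factor, rose from 1.98, 5.07 and 7.43 CPM to 313, 324, 310 and 326 CPM (6.03 ± 0.50), and H19, the non-coding RNA of the same domain, from a median of 9.34 CPM to between 66.7 and 76.0 CPM (2.98 ± 0.26). Plagl1, a zinc-finger factor, rose from a median of 7.39 CPM to between 378 and 398 CPM (5.71 ± 0.17), and Nnat by 5.59 ± 0.11. Phlda2, a placental growth restrictor, fell from 8.03, 13.1 and 17.9 CPM to between 0.200 and 0.465 CPM (-5.49 ± 0.28). These libraries do not separate the parental alleles.

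Germline and early-embryo genes, which ESC are known to transcribe, were lower in neural cells. Of 23 germline genes, 22 fell and none rose, with a median of -5.83. Ddx4, the helicase of germ cells, went from 32.7, 37.8 and 46.7 CPM to 0.967, 0.743, 0.636 and 0.746 CPM (-5.68 ± 0.20, adjusted p = 3.59e-07). Piwil2, of the piRNA pathway, fell by 6.83 ± 0.13, and Mael, of the same pathway, from 12.1, 16.1 and 21.2 CPM to 0.260, 0.135, 0.248 and 0.0728 CPM (-6.50 ± 0.26). Stag3, the meiotic cohesin subunit, went from 193, 215 and 221 CPM to between 12.0 and 13.0 CPM (-4.08 ± 0.06). Promoters of Mael, Stag3 and the synaptonemal gene Sycp3 are shown because their windows hold CACGTG, the E-box letters at which the germline gene repressor PRC1.6 is recruited in ESC through MGA and MAX. Capitals mark CACGTG (GRCm38.p6; Mael, chr1:166238695-166238994, minus strand; Stag3, chr5:138280259-138280558, plus strand; Sycp3, chr10:88459337-88459636, plus strand).
Mael: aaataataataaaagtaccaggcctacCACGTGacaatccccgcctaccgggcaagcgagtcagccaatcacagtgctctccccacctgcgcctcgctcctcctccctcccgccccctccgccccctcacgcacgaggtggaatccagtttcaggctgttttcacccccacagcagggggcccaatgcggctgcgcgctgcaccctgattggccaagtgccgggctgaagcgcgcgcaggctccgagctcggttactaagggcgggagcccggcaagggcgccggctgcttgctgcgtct
Stag3: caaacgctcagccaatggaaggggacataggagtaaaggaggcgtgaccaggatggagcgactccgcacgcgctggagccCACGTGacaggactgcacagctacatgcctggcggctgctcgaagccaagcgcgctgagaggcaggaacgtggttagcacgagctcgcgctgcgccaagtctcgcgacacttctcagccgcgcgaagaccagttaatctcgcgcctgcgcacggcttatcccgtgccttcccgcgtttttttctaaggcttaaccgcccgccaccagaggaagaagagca
Sycp3: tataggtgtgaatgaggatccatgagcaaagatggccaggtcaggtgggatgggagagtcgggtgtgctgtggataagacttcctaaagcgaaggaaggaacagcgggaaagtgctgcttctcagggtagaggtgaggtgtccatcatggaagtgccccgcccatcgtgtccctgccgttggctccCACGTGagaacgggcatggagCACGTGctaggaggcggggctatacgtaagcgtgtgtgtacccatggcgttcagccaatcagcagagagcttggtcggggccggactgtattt
These letters, the same on both strands, were in 12 of 21 windows of this list that matched the RefSeq table and in 7.24% of all 27025 promoters.

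The genes of the rare 2-cell-like cells of ESC cultures fell in 17 of 17 cases, with a median of -7.33. Zscan4c, which marks those cells, was at 27.1, 101 and 252 CPM in ESC and at 0.577, 0.405, 0.527 and 0.528 CPM in neural cells (-7.90 ± 1.05, adjusted p = 0.000299). Its copies, such as Zscan4d (-7.83 ± 1.16), share reads, so the split between them is uncertain, and Zscan4d missed the threshold with limma voom (adjusted p = 0.067). Tcstv3 went from 0.913, 2.56 and 6.69 CPM to 2 counts over the neural libraries. Dppa3, the Stella gene of naive ESC and germ cells, fell by 6.28 ± 0.65. Of interferon response genes, 13 of 20 fell and 1 rose. Ifitm3, a membrane protein that blocks viral entry and is used as an early germ cell marker, went from a median of 94.9 CPM to between 3.96 and 4.77 CPM (-4.36 ± 0.13). Of immediate early and stress genes, 13 of 20 rose and 5 fell, but against the second ESC series 7 rose and 10 fell. Among the 13 was Jun, from 1.5, 2.34 and 2.74 CPM to 60.6, 65.3, 60.7 and 66.4 CPM (4.82 ± 0.15).

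Markers of endoderm, and of smooth muscle and fibroblasts, were at levels above those of ESC in the neural libraries. The 6 endoderm markers summed to 2.54 to 8.57 CPM in ESC and to 101 to 129 CPM in neural cells, and all 6 were called higher. Afp, 1 of them, stayed near the floor at 0.031 to 0.220 CPM in neural cells. Sox17, a factor of endoderm and vessels, rose from 0.166, 0.397 and 0.801 CPM to 40.2, 37.8, 30.9 and 37.7 CPM (6.35 ± 0.46, adjusted p = 1.18e-05). Gata4, a factor of primitive endoderm and heart, rose from 1.34, 3.12 and 5.20 CPM to 45.2, 40.9, 35.3 and 39.0 CPM (3.65 ± 0.49). Col4a1, a basement membrane collagen that parietal endoderm makes in bulk and neuroepithelium also makes, rose from 19.5, 40.6 and 64.5 CPM to 1659, 1598, 1269 and 1370 CPM (5.19 ± 0.37). Ttr, a carrier protein of yolk sac, liver and choroid plexus, had 12 counts over the ESC libraries and was at 6.15 to 9.54 CPM. Over the longer endoderm and yolk sac list, 23 of 25 genes rose and 1 fell.

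The 6 smooth muscle and fibroblast markers summed to 5.74 to 24.0 CPM in ESC and to 199 to 224 CPM in neural cells. Acta2, the smooth muscle actin, was at 79.9, 83.1, 81.7 and 85.3 CPM in neural cells, Tagln at 94.6, 108, 108 and 108 CPM, and Col3a1, a fibrillar collagen, at 8.91, 9.93, 9.27 and 12.0 CPM. Of 6 mesoderm markers 1 was called higher, and their sum was at 6.32 to 7.50 CPM in ESC and at 12.6 to 18.2 CPM in neural cells, where T (brachyury) was at 9.73, 6.92, 6.23 and 9.68 CPM and Msgn1 was listed at 0. Cdx2, a factor of trophectoderm and of the posterior embryo, was at 7.58 to 8.41 CPM, whereas the trophectoderm factor Elf5 stayed at or below 0.118 CPM. The summed levels of surface ectoderm markers went from 86.2 to 150 CPM to 18.1 to 20.8 CPM, led by Epcam (-2.47 ± 0.14). Endothelial and blood markers went from 78.3 to 121 CPM to 13.7 to 17 CPM, led by Pecam1, which ESC express (-7.24 ± 0.24). Of these 6 markers, 2 were called lower and 2 higher. The 2 called higher were Kdr, at 10.9 to 12.6 CPM in neural cells, and Cdh5, at 2.07 to 3.66 CPM. Kdr made up most of the neural sum. Hbb-bh1 was listed at 0 in all neural libraries.

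Set beside these, the 8 ESC markers summed to 5585 to 6714 CPM in ESC and to 39.5 to 47 CPM in neural cells. The 8 neural progenitor markers went from 288 to 324 CPM to 1524 to 1595 CPM, of which Sox2 made up most of the ESC sum. The 8 neuron markers went from 362 to 514 CPM to 665 to 761 CPM. Stmn2 made up most of that ESC sum and fell from a mean of 313 CPM to 58.8 CPM. Of the other neuron markers 6 were called higher and Mapt was not called. The 8 glial markers went from 10.8 to 26.3 CPM to 173 to 194 CPM, the latter mostly Pdgfra. The part that non-neural cells take in the changes of genes they share with neural cells, such as Foxa2, Otx2, Pdgfra, Igf2, Col4a1 and Vim, was not tested.

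**Figure D5:**
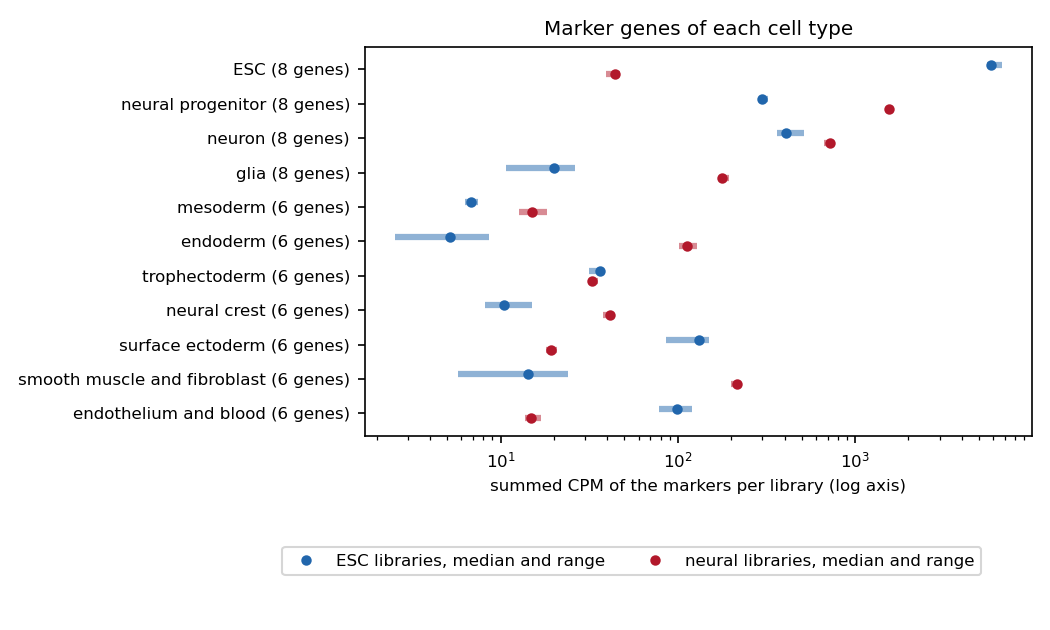
Summed CPM of the markers of 11 cell types on a log axis, with the median (point) and range (bar) over the 6 ESC libraries and the 4 neural libraries. The ESC sum goes from 5860 to 44.2 CPM, the neural progenitor sum from 297 to 1554 CPM, and the endoderm sum from 5.15 to 113 CPM, while the trophectoderm sum is 36.3 and 32.8 CPM.

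The change was also compared between the clone labels, with the single libraries as the units. It differed for 346 of 21311 genes (1.62%), 233 with a larger signed change under A04 and 113 under A10. Of these, 344 also differed between the ESC of the 2 clones, and the neural libraries by label differed for 1 of them. The neural libraries hardly differed by label, so a difference in the change is close to the ESC difference with its sign turned. The overlap of 344 genes follows from that and is no separate result. Chromosome 8 held 8.09% of these genes and 5.12% of those tested. Ccnd2 changed by 3.85 under A04 and by 5.51 under A10, a difference of 1.65 (adjusted p = 0.021), with ESC of A10 lower than ESC of A04 by 1.75 on the log2 scale. Pax6 and Sox1 likewise changed more under A10, by 1.34 and 1.08. Acta2 changed less under A10, by 5.91 in A04 and 3.79 in A10 (difference -2.11, adjusted p = 0.00126), as did Gata4 (-1.90), Sox17 (-1.96), Igf2 (-1.63), Col4a1 (-1.38) and Pdgfra (-1.46). For these 6 genes, as the contrast implies, the mean over the A04 ESC libraries was lower than that over the A10 ESC libraries. Because the neural A04 libraries did not carry the Y-linked share of A04 ESC, and the neural A10 libraries did not carry the chromosome 8 level of A10 ESC, a difference in the clones' conversion and a difference in which ESC the neural cells came from cannot be told apart. The count of 346 was 74 without the second neural library labelled A10 and 2191 without the second A04 ESC library.

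Usp26, an X-linked gene of the testis, and Mid1, an X-linked ubiquitin ligase gene, were among those with the largest differences. Mid1 was at 0.158, 1.67 and 3.56 CPM in ESC and at 59.5, 59.4, 59.6 and 60.6 CPM in neural cells, and its change was larger under A10 by 3.89. Usp26 was at 4.36, 28.2 and 52.0 CPM in ESC and at 0.326 to 0.409 CPM in neural cells, with changes of -3.61 under A04 and -7.22 under A10. With limma voom its change between stages missed the threshold (adjusted p = 0.084). In both, the wide range was among the ESC libraries and the 4 neural libraries lay close together.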

How the data were processed

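RNA was sequenced from R42A control cells in 6 ESC and 4 neural libraries. Each deposited file lists expected counts by gene, which need not be whole (1.46% to 1.70% of genes were not), made with Trim Galore 0.60, STAR 2.7.1a and RSEM 1.3.0 on mm10, per the submitters' processing notes, which also name DESeq2. The annotation release and the strand setting are not given in the sources used here, so overlapping and antisense genes cannot be separated. Of 55573 genes, 1562 Y-linked ones were left out and 54011 kept.

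Counts were rounded and summed per clone label and stage. edgeR 4.0.16 (R 4.3.3) fitted its robust quasi-likelihood model with TMM scaling and filterByExpr (minimum count 10) to 8 sums in 4 groups. These were R42A and MD, as ESC and as neural cells. The MD sums are not in the contrast, but they enter the filter, the TMM scaling and the estimate of spread. A fit of the R42A sums alone held 22693 of the 23823 genes tested. P-values were adjusted by Benjamini-Hochberg over all genes tested. The difference between clone labels was fitted on the 10 single libraries, where p-values measure the spread between libraries of a clone. CPM use the library's total of tested genes and the TMM factor of its sum. Floors and counts at 0 cover counting error only. The main edgeR fit was tested on simulated counts in which few genes changed, unlike these data, and the other models were not. DESeq2 1.42.0, limma 3.58.1, other scalings and filters, the clone label as a replicate block, the second ESC series and leaving out each library were alternatives.

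Gene positions are from GENCODE M21 (mm10) and sequences from RefSeq (GRCm38.p6). The members and gene lists were chosen with earlier results of these data known. Genes were named as anchors of the lists, by the largest called changes without overlap in each list and over all genes, by the highest levels per kilobase, or by the largest clone differences. That rule named 133 of the 180 genes given with values, and the other 47 were chosen after their values were seen. A few genes named by it are not reported here. By their labels ESC and neural sums pair by clone, but across 23823 genes the A10 less A04 difference in ESC correlated with that in neural sums at r = -0.0186 (genes are not independent replicates).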

Additional observations from a re-analysis of the deposited data

Results flagged for a closer look

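Single libraries stood apart from the others of their stage in 31 of 354 sets of values examined, by the gap of the highest or lowest library relative to the whole range. Chance flags about 1 in 20 such sets. All 20 flags among ESC libraries fell on A04 libraries, 11 of them on the third. High in A04 1 were Cdkn1c (8.78 CPM), Ptbp2 (69.1 CPM), Stra8 (38 CPM) and Tet1 (2120 CPM), and low in it was Nanog (655 CPM). High in A04 2 were Actl6b (0.18 CPM), Esrrb (826 CPM), Mymx (90.0 CPM) and Tuba1a (549 CPM). High in A04 3 were Bicral (185 CPM), En1 (0.665 CPM), Lin28a (370 CPM) and Piwil2 (58.5 CPM), with Fezf2 and Neurod4 at 0.0111 CPM each, which is 1 count. Low in A04 3 were Cdkn1a (25.3 CPM), Fgf4 (204 CPM), Neurod1 (5.34 CPM), Slc2a3 (1160 CPM) and Ss18l1 (7.61 CPM).

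Among neural libraries 11 values stood apart. In A04 1 these were Esrrb (5.02 CPM, low), Tagln (94.6 CPM, low), Smarcc1 (383 CPM, high) and Mymx (0.0372 CPM, high). In A04 2 they were Aqp4 (2.09 CPM) and Hoxd3 (0.355 CPM), both low. In A10 1 they were Sall4 (113 CPM), Smarcd2 (22.6 CPM) and Sox1 (163 CPM), all low, and Pax3 (54.1 CPM, high), and in A10 2 Khdc3 (0.0364 CPM, high).

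The change between stages differed between the clone labels for 346 genes by a test of that difference in edgeR. The values that follow are the log2 change under A10 less that under A04. Among genes that rose under both labels, the rise was larger under A10 for Mid1 (3.89), Emx2 (3.56), Ccnd2 (1.65), Pax6 (1.34), Sox1 (1.08) and En2 (1.03). It was smaller under A10 for Acta2 (-2.11), Sox17 (-1.96), Gata4 (-1.90), Igf2 (-1.63), Tagln (-1.53), Pdgfra (-1.46) and Col4a1 (-1.38). Among genes that fell under both, the fall was larger under A10 for Usp26 (-3.61) and Dppa3 (-2.68), and smaller for Zscan4d (3.10), Zscan4c (2.87), Spry4 (0.799) and Stmn2 (0.512). Mapt changed by 0.0848 under A04 and by -1.25 under A10 (-1.34). The adjusted p of A10 against A04 among neural libraries was 1.0 for each of these 20 genes.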

How the results depend on the processing

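The count of genes called between stages stayed within 1.5 times of 18661 under all 24 alternatives, from 16703 without the neural libraries labelled A10 to 19622 without the A10 ESC libraries, and was 18146 with the clone label as a replicate block. DESeq2's size factors moved the median of all genes by -0.02 on the log2 scale. Of 180 genes named with values, 169 kept direction and call in every alternative. Turned in sign against the second ESC series were Dpf1 (-0.53), Gapdh (-0.69), Lin28a (0.0377) and Smarcc1 (0.26), and with each chromosome scaled separately Mki67 (-0.059) and Smarcc1 (0.0212). Leaving out libraries moved Lin28a between -0.27 and 0.0139, Mapt between -1.27 and 0.0232 and Smarcc1 between -0.0508 and 0.0128. With limma voom, Zscan4d and Usp26 kept direction and missed the threshold (adjusted p = 0.067 and 0.084). The cause was not tested. Of 2304 counts over gene lists, 2215 stayed within 1.5 times. The count of genes whose change differed between clone labels was 872 with DESeq2 against 346, and ran from 74 to 2191 as single libraries were left out. Genes near 1 count per library are limited by depth.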
